A study of Homo sapiens with 108 samples.

Results

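ZNF503 and ZNF703 are the 2 human members of the NET family of zinc-finger proteins, and their mRNAs were followed here through a SLAM-seq series in HEK293T, a line derived from human embryonic kidney. Both were found by summing the counted 3′ UTR intervals per Ensembl identifier and naming the identifiers, and they make up 2 of 19761 genes in the tables. The pair was chosen by name, with its mRNA levels in these arms already known and no threshold stated, so levels against the control are given as a description with no test. Cells had been transduced with lentivirus carrying a short hairpin RNA (shRNA) against ZMAT5, ZMAT3, ZNF706, MAZ, PHF7, BRCA1, CNOT4 or ZFP36L1, or a non-targeting hairpin (NT), and selected with puromycin. All 9 arms, NT included, were labelled with 10 µM 4-thiouridine (4SU) for 24 h, with fresh medium every 8 h, followed by a chase in 1 mM uridine of 0, 2, 4 or 8 h. Each arm and time had 3 biological replicates and thus 12 libraries per arm. In SLAM-seq the 4SU built into new RNA is alkylated and read as C, so labelled transcripts carry T>C mismatches that fade from the pool during the chase. The question behind the knockdowns was which mRNAs change in stability when an RNA-binding zinc-finger protein is depleted.

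The NET family takes its name from the Drosophila genes nocA and elbow and the Caenorhabditis elegans gene tlp-1. Its members carry a single atypical C2H2 zinc finger and act as transcriptional repressors, and the zebrafish and fly proteins recruit corepressors of the Groucho/TLE class. ZNF703 is known as a gene amplified in luminal breast tumours, where its protein was found in a nuclear complex with DCAF7 and PHB2. ZNF503, also called NOLZ1, is known from the developing striatum and from motor neurons, and a role as a repressor of GATA3 was described in breast cells. Messenger RNAs of regulators are often short-lived, and AU-rich elements in the 3′ UTR are a common mark of such transcripts. ZFP36L1 binds such elements and brings in the CCR4-NOT deadenylase, of which CNOT4 is an associated ubiquitin ligase.

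ZNF503 (ENSG00000165655) lies on the minus strand of chromosome 10 at 75397830 to 75401764 in hg38, and its single counted interval, chr10:75397831-75398751, covers 921 bases of the 3′ UTR in its last exon with 252 T positions. The stretches below are read on the mRNA strand and are shown because they hold the AU-rich letters and the AATAAA hexamer of the interval in which label was counted. Capitals mark ATTTA, an overlapping pair of TATTTAT (7 letters each, sharing TAT), or AATAAA, the letters of the common poly(A) signal, here 446 bases before the end of the interval. The stretch that holds the pair of TATTTAT, flanks included, lies at chr10:75398411-75398439, and the pair itself starts at base 322 of the interval.
ZNF503 overlapping TATTTAT pair: ggacactggTATTTATTTATgttagctcc
ZNF503 ATTTA at base 370: aagtgcattATTTAgtttgagct
ZNF503 ATTTA at base 549: ttgtacgttATTTAatgtctgat
ZNF503 ATTTA at base 573: gaaacacaaATTTAcatgcatgt
ZNF503 AATAAA at base 470: tagattataAATAAAagcaaaacc
On the mRNA strand the interval holds 5 ATTTA, of which 2 lie inside the overlapping pair of TATTTAT. At least 1 ATTTA stands in 68.6% of all 19761 genes' counted intervals, at least 1 TATTTAT in 32.1% and at least 1 AATAAA in 79.8%. Among 968 genes whose counted length is within 1.1-fold of that of ZNF503, 64.2% hold ATTTA and 19.2% hold TATTTAT, with a median of 1 and 0 matches. The letters TGTANATA, the core bound by Pumilio proteins, occur 0 times in ZNF503 and 0 times in ZNF703, and in 26.2% of all genes.

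ZNF703 (ENSG00000183779) lies on the plus strand of chromosome 8 at 37695782 to 37700019 in hg38, and its single counted interval, chr8:37698673-37700021, covers 1349 bases with 394 T positions. That interval holds 2 ATTTA, 1 TATTTAT and 1 AATAAA on the mRNA strand. Among 1198 genes of a counted length within 1.1-fold of it, 76.5% hold ATTTA and 26.7% hold TATTTAT. A match to such letters is a description of the sequence and no sign that a protein binds there. Neither interval shares a base with another counted gene, and multimapped reads made up 0.349% of ZNF503 reads and 0.0509% of ZNF703 reads.

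The libraries held between 63659 and 30750027 reads in counted intervals, with a median of 14870063. PHF7 8 h replicate 3 was the shallowest, with 55 reads of ZNF503 and 18 of ZNF703, and CNOT4 2 h replicate 3 came next with 1781724 reads in all. Elsewhere in the series the targeted mRNA was called lower in the MAZ, ZMAT3, ZMAT5 and ZNF706 arms, at 12.2%, 24.7%, 10.5% and 50.4% of NT. It stood at 53.9% of NT for BRCA1 (adjusted p = 0.22, edgeR quasi-likelihood test) and at 29.1% for PHF7 (adjusted p = 0.336, edgeR), neither of them called. PHF7 mRNA was near the floor, at 1.24 ± 1.59 CPM in its arm and 4.26 ± 6.63 CPM in NT (SD, n = 12 each). These counts thus cannot settle how far it was depleted. CNOT4 mRNA stood at 100.4% of NT in the CNOT4 arm, so no depletion is seen there at the mRNA level, and that arm is called a knockdown only after its label. ZFP36L1 mRNA was called higher, at 173% of NT (64.3 ± 13.0 CPM in the libraries labelled ZFP36L1 and 37.2 ± 17.2 CPM in NT, SD, n = 12 each), so these counts go against the label. The paper states that the SLAM-seq knockdowns were verified by qPCR, which was not examined here. The CNOT4 and ZFP36L1 libraries covered 27.7 to 34.0 and 25.9 to 33.0 T positions per read, against 37.1 to 37.8 in NT. Summed over 6 HEK293T markers, libraries held 511 to 1507 CPM, mostly vimentin (VIM), with PAX2 at 0.421 CPM in NT. VIM was called higher in ZMAT5, PHF7 and CNOT4, at 1089 ± 71.6, 1128 ± 293 and 974 ± 141 CPM, against 711 ± 93.7 CPM in NT. Of the other markers, NEFM was called lower in CNOT4 and ZFP36L1 (log2 differences -2.29 and -0.83) and higher in MAZ (0.74), and KRT18 and LIN28B were called higher in ZFP36L1 (1.13 and 0.34). Blood markers reached at most 0.948 CPM and hepatocyte markers 4.07 CPM. Endothelial markers reached 17.4 CPM in the shallow CNOT4 2 h replicate 3, with a median of 0 CPM over the CNOT4 libraries. Fibroblast markers reached 267 CPM in the shallow PHF7 8 h replicate 3 and at most 37.0 CPM in the other arms. Their median over the PHF7 libraries lay below that of NT, which was 17.03 CPM. Of 3 fibroblast markers, 2 were tested in each of MAZ, PHF7 and ZMAT5. In each of these arms 1 of them was called higher, beside 8.74%, 8.41% and 9.51% of all genes. The median log2 differences of the 2 tested were 3.21, 3.16 and 3.89.

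Both mRNAs were abundant. In NT, ZNF503 averaged 956 ± 142 and ZNF703 322 ± 35.8 TMM-normalised CPM per counted kb (SD, n = 12), above 98.5% and 95.6% of the 14962 genes kept over the whole series, whose median was 8.85 CPM per counted kb. TMM is edgeR's scaling of library sizes. A 3′ tag library gives about 1 read per transcript, so division by length raises genes with a short counted interval. The percentiles above and the ratios below rest on that division, with 921 bases for ZNF503 and 1349 for ZNF703. In CPM not divided by length, the means in NT were 881 ± 131 for ZNF503 and 435 ± 48.3 for ZNF703. On that undivided scale ZNF503 lay below ZNF703 in CNOT4 2 h replicate 3 (360 against 428 CPM) and BRCA1 2 h replicate 3 (392 against 398 CPM). Per kb ZNF503 stood above ZNF703 in each library. The ratio of ZNF503 to ZNF703 per kb ranged between 2.37 and 3.78 in NT (median 2.88). Its median lay above that range in 4 arms, PHF7 (3.77 to 6.39, median 4.90), ZMAT3 (3.56 to 7.43, median 4.79), the ZFP36L1-labelled libraries (3.50 to 6.32, median 4.43) and MAZ (2.89 to 5.87, median 4.24), and below it for BRCA1 (1.44 to 4.202, median 2.15).

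ZNF503 differed from NT in both directions. It was lowest in the ZMAT5 arm, with 258 CPM in the lowest library, a median of 366 CPM and 450 CPM in the highest, against 693, 865 and 1115 CPM in NT. No ZMAT5 library reached the lowest NT library, and the log2 difference was -1.27 ± 0.08 (SE), or 0.415-fold. For BRCA1 the libraries ran between 392 and 816 CPM with a median of 473 CPM, 11 of 12 below the lowest NT library, and the log2 difference was -0.79 ± 0.09. ZNF503 was highest in the libraries labelled ZFP36L1, between 1398 and 1966 CPM with a median of 1706 CPM. All 12 stood above the highest NT library, and the log2 difference was 0.93 ± 0.06, or 1.90-fold.

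In the CNOT4 arm ZNF503 held a median of 1277 CPM, with 10 of 12 libraries above the NT range, and the log2 difference was 0.43 ± 0.13. The exception at the bottom was CNOT4 2 h replicate 3, at 360 CPM. Without that shallow library the log2 difference was 0.54. The PHF7 libraries held a median of 1088 CPM and overlapped NT, with a log2 difference of 0.22 ± 0.11, or 0.30 without the shallow 8 h library, which stood at 480 CPM. Values in the MAZ, ZMAT3 and ZNF706 arms overlapped NT, with medians of 817, 891 and 703 CPM and log2 differences of -0.15 ± 0.08, 0.03 ± 0.07 and -0.23 ± 0.07. CPM is a share of the library, so fewer cells that hold the mRNA and less of it per cell cannot be told apart.

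**Figure D1:**
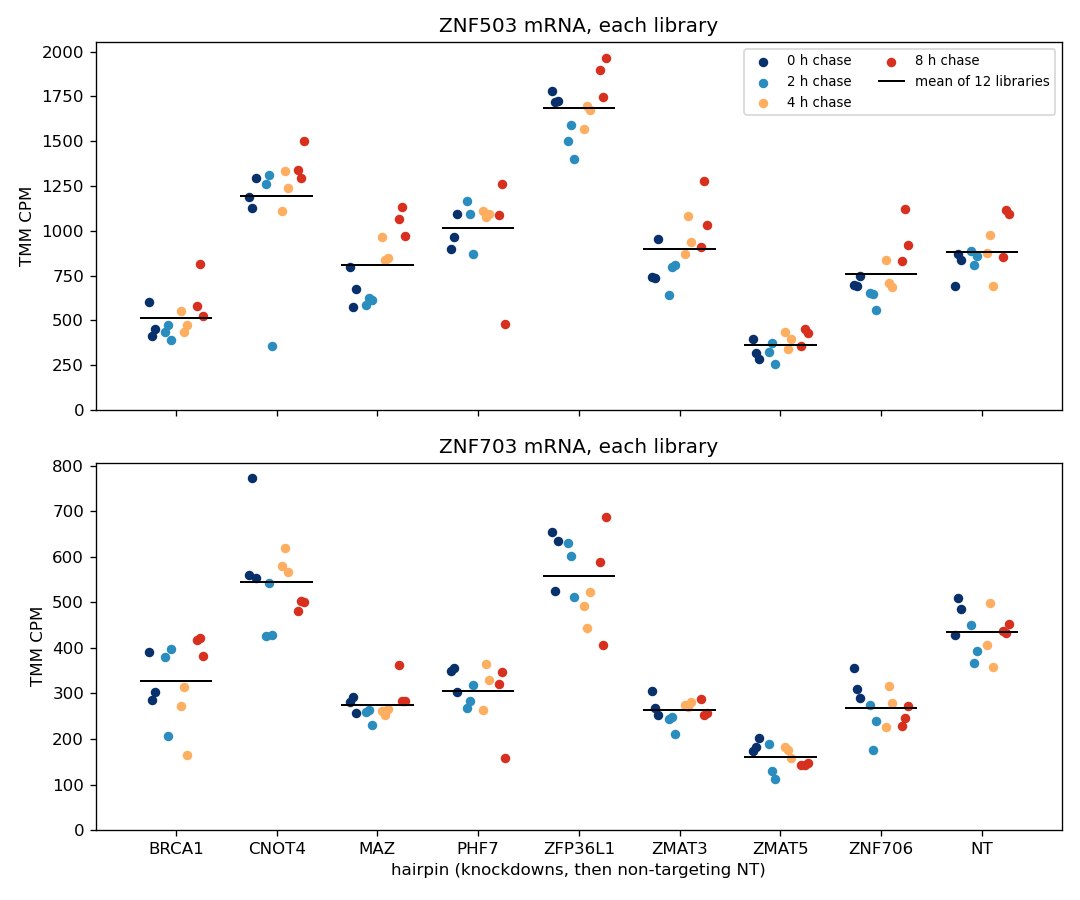
TMM-normalised CPM (vertical axes, from 0) of ZNF503 and ZNF703 mRNA in each library, by hairpin (horizontal axis, knockdowns, then NT), with points coloured by chase time and a line at the mean of the 12 libraries of an arm. All ZMAT5 points of both genes lie below the NT points, and all ZNF503 points of the libraries labelled ZFP36L1 lie above them.

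ZNF703 averaged below NT in 6 of the 8 arms with a targeting hairpin. It averaged above NT in CNOT4 and ZFP36L1, where the targeted mRNA was not lower than in NT. Its ZMAT5 libraries held 113 CPM at the lowest, a median of 166 CPM and 202 CPM at the highest, against 358, 434 and 509 CPM in NT. The log2 difference was -1.43 ± 0.08, or 0.371-fold, close in size to that of ZNF503 in the same arm. ZMAT3 libraries lay between 211 and 306 CPM with a median of 262 CPM, and ZNF706 libraries between 175 and 357 CPM with a median of 273 CPM. Neither arm overlapped NT, and the log2 differences were -0.72 ± 0.06 and -0.71 ± 0.08. MAZ libraries lay between 231 and 363 CPM with a median of 264 CPM, 11 of 12 below NT, and the log2 difference was -0.67 ± 0.07. For PHF7 the median was 320 CPM, 11 of 12 libraries stood below NT, and the log2 difference was -0.49 ± 0.10.

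In the BRCA1 arm ZNF703 lay between 165 and 421 CPM with a median of 347 CPM. Of these libraries 6 of 12 stood below NT, and the log2 difference was -0.43 ± 0.11. In the CNOT4 arm 7 of 12 libraries stood above NT (median 548 CPM, log2 difference 0.31 ± 0.09), and in the libraries labelled ZFP36L1 9 of 12 did (median 556 CPM, log2 difference 0.35 ± 0.08). Both ranges overlapped NT.

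Set side by side, the arms fall into a few patterns that the pair shares or does not share. Both mRNAs were far below NT in the ZMAT5 arm and above it in the CNOT4 and ZFP36L1-labelled libraries. ZNF703 was lower by 0.67 to 0.72 on the log2 scale for MAZ, ZMAT3 and ZNF706, where ZNF503 differed by -0.23 to 0.03. In the PHF7 arm the log2 difference was 0.22 for ZNF503 and -0.49 for ZNF703. All 8 comparisons share the same 12 NT libraries. Ordered by mean, ZNF503 ran ZMAT5, BRCA1, ZNF706, MAZ, NT, ZMAT3, PHF7, CNOT4, ZFP36L1, and each arm overlapped the next. ZNF703 ran ZMAT5, ZMAT3, ZNF706, MAZ, PHF7, BRCA1, NT, CNOT4, ZFP36L1, and only ZMAT5 and ZMAT3 did not overlap.

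The call rule, applied to all genes with edgeR's quasi-likelihood test, asked for a fold over 1.2 either way and an adjusted p (Benjamini-Hochberg) under 0.05. It was used for other genes and the gene lists, not for the levels of the pair. Of all genes tested, called shares were 9.51% for ZMAT5, 10.2% for ZMAT3, 5.15% for ZNF706, 8.74% for MAZ, 8.41% for PHF7, 0.0785% for BRCA1, 27.0% for CNOT4 and 40.0% for ZFP36L1. Full separation of 12 libraries from 12, as for the pair in ZMAT5, was seen as lower in 0.414% of 14962 genes for ZMAT5, 0.515% for ZMAT3 and 0.154% for ZNF706, and as higher in 3.38% for ZFP36L1. The median log2 difference of all genes lay between -0.03 and 0.15.

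**Figure D2:**
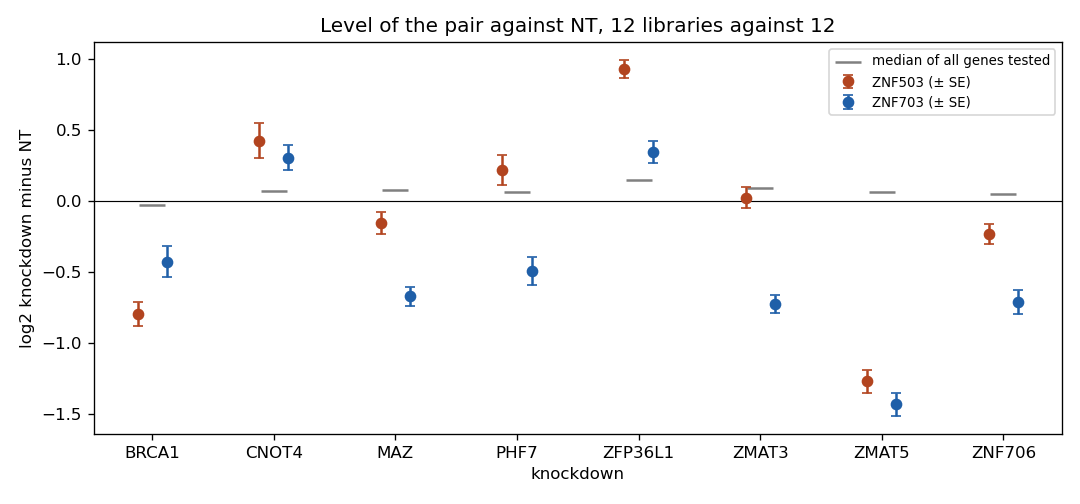
Log2 difference in level, knockdown minus NT (vertical axis), of ZNF503 and ZNF703 in each knockdown (horizontal axis) with SE bars, from 12 libraries against 12, and a grey dash at the median of all genes tested. Both genes lie lowest in ZMAT5, at -1.27 and -1.43, and ZNF503 lies highest in ZFP36L1, at 0.93.

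Markers of mapping moved with both arms in which the pair was higher. In the CNOT4 and ZFP36L1-labelled libraries ZNF503 reads covered a median of 35.1 and 35.1 T positions each, against 40.0 in NT, and ZNF703 reads 25.5 and 25.4, against 28.5. Leaving out multimapped reads left the log2 differences of ZNF503 at 0.46 and 0.96 and those of ZNF703 at 0.34 and 0.38. The header of the CNOT4 8 h files names another kind of labelling than the rest, and over 0, 2 and 4 h alone the CNOT4 differences were 0.43 for ZNF503 and 0.36 for ZNF703. The part of read coverage in these levels was not tested.

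Whether the difference from NT depended on chase time was tested in each arm, and no arm passed for either gene. The lowest adjusted p was that of ZNF503 in the MAZ arm (adjusted p = 0.702, edgeR quasi-likelihood test of the interaction over 13398 genes). There the MAZ libraries held 684 ± 113, 610 ± 19.6, 883 ± 71.9 and 1056 ± 81.8 CPM at 0, 2, 4 and 8 h, against 801 ± 94.0, 852 ± 40.4, 848 ± 144 and 1021 ± 147 CPM in NT (SD, n = 3). Across all genes the interaction was called in 0.0157% for BRCA1 and 0.571% for CNOT4, and in 0.0% for the other arms.

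Within arms the levels at either end of the chase were set side by side. The 8 h mean of ZNF503 was above its 0 h mean in 8 of 9 arms, all but PHF7 with its shallow 8 h library. That of ZNF703 was above in 2 of 9 arms (BRCA1 and MAZ), and the difference between the genes was not tested. In NT the log2 difference of 8 h minus 0 h was 0.35 ± 0.14 for ZNF503 (adjusted p = 0.951, edgeR) and -0.10 ± 0.15 for ZNF703 (adjusted p = 1, edgeR). In this comparison 0 of 12126 genes (0.0%) were called by edgeR and 96 by DESeq2, while 615 had an unadjusted p under 0.05 in edgeR.

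The T>C rate, conversions over covered T positions summed per gene, was high for both mRNAs after labelling and fell early. At 0 h in NT it was 2.87%, 2.99% and 2.94% for ZNF503 and 3.00%, 3.10% and 2.63% for ZNF703. Those rates lay above 95.6% and 95.3% of the 7618 genes that passed the filter of 5 CPM in NT, whose median was 1.68%. After 2 h ZNF503 stood at 1.05%, 1.04% and 1.01%, and ZNF703 at 0.666%, 1.73% and 1.204%, a wider scatter. After 8 h NT libraries held 0.117%, 0.342% and 0.0509% for ZNF503 and 0.102%, 0.228% and 0.0239% for ZNF703, and replicate 2 was the highest for both. The lowest 1% of well-covered genes in NT lay at or below 0.0188% at 8 h, and the median gene at 0.552%. Libraries without 4SU were not analysed here, so the share of T>C mismatches that is not label is unknown.

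The 0 h rate was set against NT in each arm with an exact two-sided permutation test, whose smallest p with 3 libraries against 3 is 0.1. That smallest p (adjusted p = 0.133 over 16 tests) was reached by both genes in 6 arms. The rate was higher in 4 of them. In MAZ it averaged 4.82% ± 0.349 for ZNF503 and 4.60% ± 0.262 for ZNF703, in ZMAT3 4.88% ± 0.478 and 4.80% ± 0.428, in ZNF706 3.92% ± 0.553 and 3.77% ± 0.734, and in PHF7 3.46% ± 0.212 and 3.24% ± 0.0922. It was lower in CNOT4, at 2.39% ± 0.0606 and 2.28% ± 0.315, and in ZMAT5, at 1.98% ± 0.0702 and 2.08% ± 0.206, against 2.93% ± 0.0604 for ZNF503 and 2.91% ± 0.247 for ZNF703 in NT (SD, n = 3 each).

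These shifts ran with the whole library. Full separation from NT at 0 h was seen as higher in 70.6% of genes for MAZ, 66.0% for ZMAT3, 31.3% for ZNF706 and 44.5% for PHF7, and as lower in 14.9% for CNOT4 and 26.6% for ZMAT5. The rate pooled over all genes at 0 h was 2.95% ± 0.197 in MAZ, 3.03% ± 0.527 in ZMAT3 and 1.27% ± 0.0406 in ZMAT5, against 1.75% ± 0.0746 in NT. Divided by the pooled rate of its own library, the 0 h rate of ZNF503 was 1.49 to 1.70 in the knockdown arms and 1.68 ± 0.105 in NT, and that of ZNF703 1.42 to 1.72 and 1.67 ± 0.165. On that scale the lowest p was again 0.1, in PHF7 for both genes and in the ZFP36L1-labelled libraries for ZNF503, all of them lower (adjusted p = 0.533, exact permutation test over 16 comparisons).

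**Figure D3:**
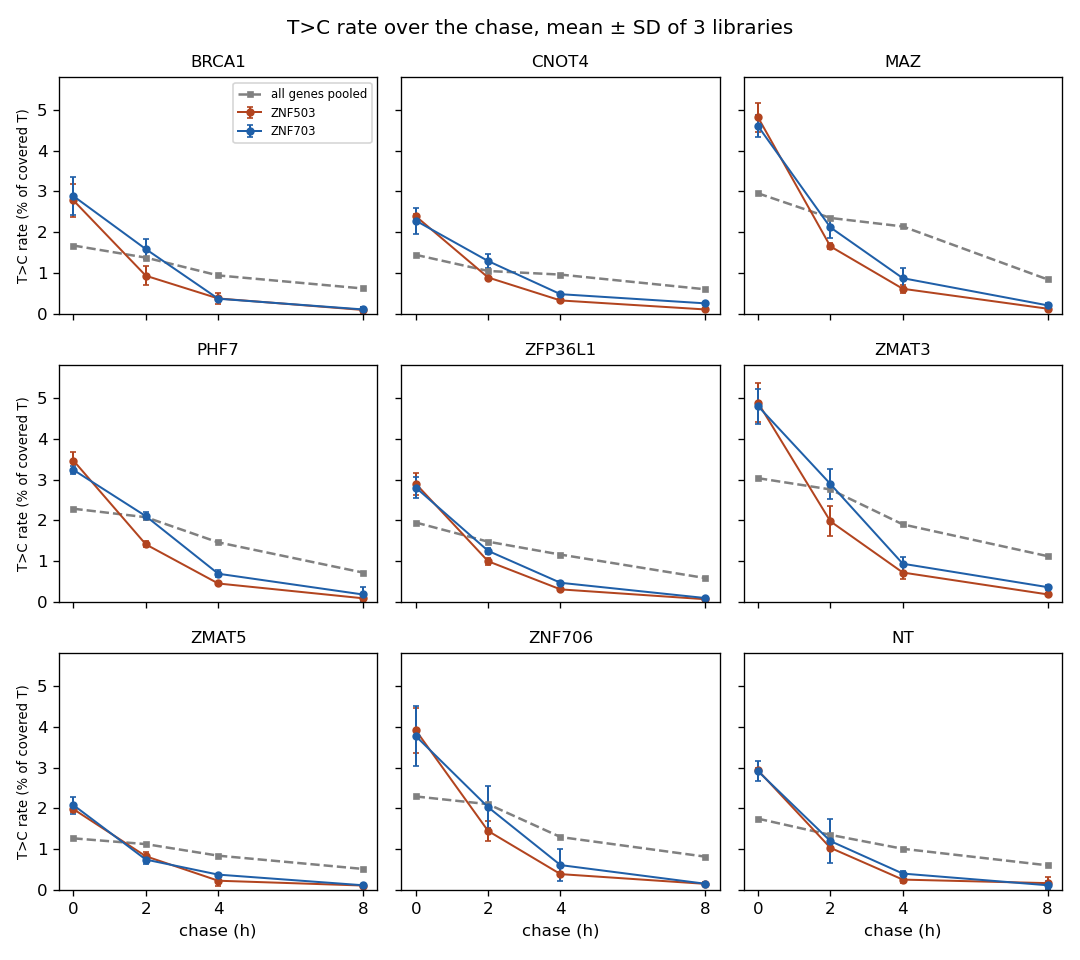
T>C rate in percent of covered T positions (vertical axes) against chase time in hours (horizontal axes) for ZNF503, ZNF703 and all genes pooled, in 1 panel per hairpin with NT last, as the mean ± SD of 3 libraries (pooled rate without bars). Both mRNAs start above the pooled rate, at 2.93% and 2.91% against 1.75% in NT, and lie below it by 4 h in each arm.

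Label was lost quickly in each arm. Of the 0 h rate, ZNF503 kept 33.6% to 41.8% at 2 h, 8.75% to 14.8% at 4 h and 2.34% to 5.79% at 8 h over the 9 arms. ZNF703 kept 35.9% to 65.0% at 2 h, 12.9% to 21.4% at 4 h and 3.43% to 11.3% at 8 h. In NT the median gene kept 73.6%, 50.1% and 20.6% at those times, so both mRNAs shed label well ahead of most. The 0 conversions of either gene in the shallow PHF7 library allow a rate of up to 0.137% for ZNF503 and 0.562% for ZNF703, counting error only.

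Half-lives followed the study's procedure, a first-order curve through the replicate means set to 1 at 0 h. ZNF503 had a half-life of 1.29 h in NT, with curves of single replicates at 1.37, 1.27 and 1.23 h, and ZNF703 1.51 h, with 1.06, 1.83 and 1.61 h. The median of the 5544 genes with a half-life in NT was 3.27 h, and 9.16% and 12.7% of them lay below ZNF503 and ZNF703. Over the knockdown arms ZNF503 ranged between 1.28 h in the ZFP36L1-labelled libraries and 1.51 h in ZMAT3. From the share of T>C reads in place of the rate it was 2.45 h in ZMAT3 and 2.07 h in MAZ, against 1.32 h in MAZ from the rate, and a straight line through the log rates gave 1.94 h in NT. ZNF703 ranged between 1.47 h in ZMAT5 and 2.27 h in PHF7, with 2.14 h in CNOT4 and 2.13 h in ZMAT3. In PHF7 the single-replicate curves of ZNF703 gave 2.07, 2.39 and 2.37 h, all above the 3 NT curves, and those of ZNF503 gave 1.38, 1.59 and 1.47 h. The third PHF7 curve takes its 8 h point from the shallow library, with 18 reads of ZNF703 and 0 conversions. That library also enters the PHF7 curve through the means. The median gene in PHF7 and ZMAT3 also had a longer half-life, 4.68 and 5.06 h, so that 9.81% and 5.21% of genes lay below ZNF703 there, against 12.7% in NT.

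**Figure D4:**
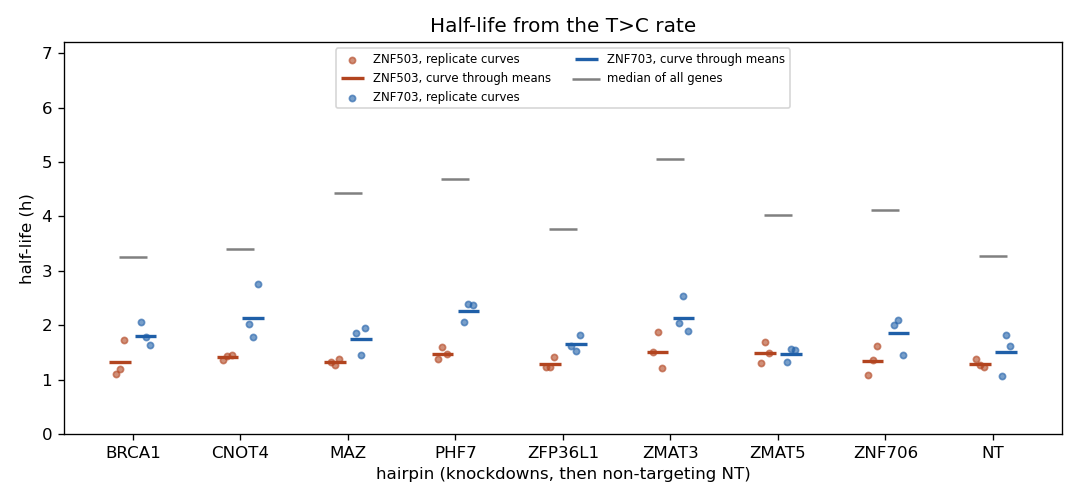
Half-life in hours (vertical axis, from 0) of ZNF503 and ZNF703 by hairpin (horizontal axis, knockdowns, then NT), with points for the curves of single replicates, bars for the curve through the replicate means and a grey dash for the median of all genes with a half-life. ZNF503 lies at 1.28 to 1.51 h and ZNF703 at 1.47 to 2.27 h, both below the median gene in each arm.

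No arm passed the test of label loss against NT for either gene. The NT rates were 0.354 per h for ZNF503 and 0.403 per h for ZNF703 (natural log, edgeR on conversions with T coverage as offset). Intervals are normal-theory 95% intervals from the SE, whereas p comes from the quasi-likelihood F test. ZNF703 in the CNOT4 arm had the largest difference, 0.277 against 0.403 per h in NT, or -0.126 per h (95% interval -0.227 to -0.0245, adjusted p = 0.525, edgeR). The median difference of all genes tested in that arm was -0.0564 per h. At 8 h the median gene kept 31.4% of its 0 h rate in CNOT4 and 20.6% in NT. The CNOT4 8 h files, whose header names another kind of labelling, enter this slope. The next largest difference was that of ZNF503 in the ZFP36L1-labelled libraries, 0.469 against 0.354 per h in NT, or 0.115 per h faster (interval 0.0213 to 0.208, adjusted p = 0.438, edgeR). Without 1 replicate at a time this difference ran between 0.0160 and 0.155 per h. The median of all genes tested there was 0.0118 per h. For ZNF503 in MAZ the difference was 0.0971 per h (interval 0.00305 to 0.191, adjusted p = 0.731, edgeR), and between 0.00934 and 0.142 per h without 1 replicate at a time. In the ZMAT5 arm, where both levels were lowest, the differences were 0.00828 per h for ZNF503 (interval -0.101 to 0.117) and -0.0513 per h for ZNF703 (interval -0.151 to 0.0486).

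Signs differed between the members. The estimate was above 0 for ZNF503 in 8 of 8 arms, which share the NT libraries, and over 0 to 4 h alone it was below 0 in all 8. For ZNF703 it was above 0 in 3 of 8. Called shares in this test were 0.0684% for ZMAT5, 0.574% for ZMAT3, 0.0137% for ZNF706, 0.0402% for MAZ, 0.307% for PHF7, 0.0% for BRCA1, 0.0579% for CNOT4 and 0.0815% for ZFP36L1, so few genes of any kind were called. For BRCA1 neither edgeR nor limma called any of the 7034 genes (0 and 0), although 509 had an unadjusted p under 0.05 in edgeR.

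**Figure D5:**
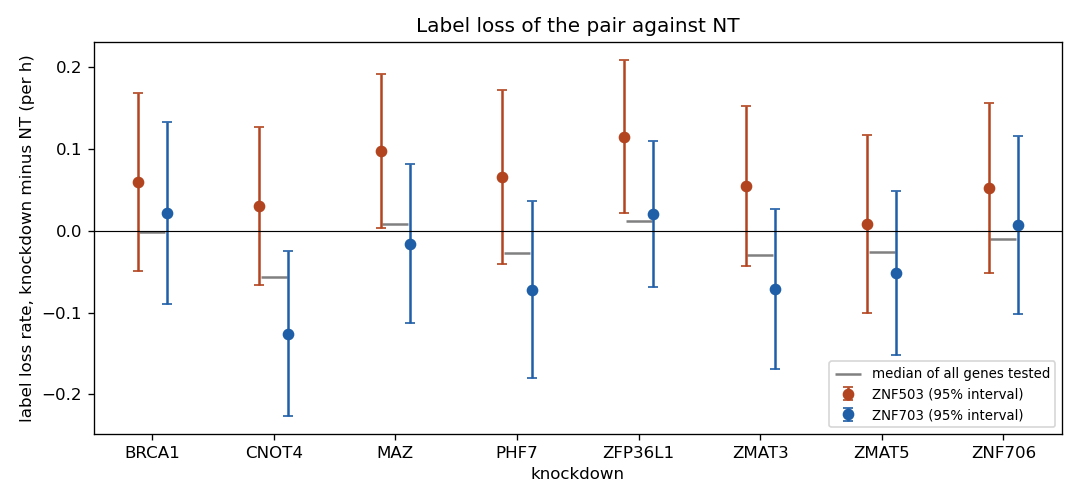
Difference in the rate of label loss, knockdown minus NT, per hour (vertical axis) for ZNF503 and ZNF703 in each knockdown (horizontal axis), with 95% intervals and a grey dash at the median of all genes tested. ZNF703 in CNOT4 lies lowest at -0.126 per h and ZNF503 in ZFP36L1 highest at 0.115 per h, and no point passed the test after adjustment.

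The label of the pair was also compared within libraries, where both mRNAs saw the same 4SU. At 0 h ZNF503 had the higher rate in 16 of 27 libraries. After 2 h ZNF703 had the higher rate in 22 of 27 libraries and after 4 h in 25 of 27. At 8 h ZNF703 was higher in 19, ZNF503 in 7, and both were at 0 in the shallow PHF7 library. In the ZMAT3 arm at 2 h the 3 differences, ZNF503 minus ZNF703, were all between -0.965 and -0.842 percentage points. ZMAT5 was unlike the others at 2 h, with ZNF503 higher in all 3 libraries, by 0.0285 to 0.158 percentage points.

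Averaged over the 12 libraries of an arm, ZNF503 minus ZNF703 was -0.307 ± 0.3995 percentage points in ZMAT3, with ZNF703 higher in 11 of 12 libraries (SD, n = 12, p = 0.0151, adjusted p = 0.136 over 9 arms, exact sign-flip permutation test). In CNOT4 it was -0.149 ± 0.247 with ZNF703 higher in 11 of 12 (p = 0.0635, adjusted p = 0.208, exact test), and in NT -0.0601 ± 0.273 with ZNF703 higher in 7 of 12 (p = 0.488, adjusted p = 0.488, exact test). These SDs include the spread over chase times, as the mean difference in ZMAT3 was 0.0818 at 0 h and -0.915 at 2 h. The test likewise pools all chase times of an arm, so its p does not measure the spread between replicates at any 1 time. No arm passed the adjusted threshold with all replicates. Without replicate 3 both ZMAT3 (-0.334 percentage points) and CNOT4 (-0.188) did, each with an adjusted p = 0.0352 (exact test). Without replicate 1 or 2 no arm did (lowest adjusted p = 0.442 and 0.281, exact test). The direction depended on how label was counted. By the share of reads called T>C, the mean of ZNF503 minus ZNF703 was above 0 in all 9 arms, and at 0 h ZNF503 was higher in 26 of 27 libraries. ZNF503 reads covered 24.8 to 42.1 T positions each and ZNF703 reads 21.97 to 31.7, and a read with more T positions has more chances to be called. The half-life of ZNF503 was the shorter in 8 of 9 arms, all but ZMAT5, whereas the slope over the whole chase in NT put ZNF503 at the slower rate.

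Of 5 TLE genes, which encode the Groucho-type corepressors, TLE2 was near 0, at 0.658 ± 2.07 CPM in NT and under 2 CPM in each arm. TLE4 averaged 251 ± 33.0 CPM in PHF7 and 145 ± 40.3 CPM in NT (log2 difference 0.83 ± 0.12, adjusted p = 2.4e-05, edgeR, as for the other genes in this paragraph). TLE3 fell to 56.3 ± 14.4 CPM in ZMAT5, against 115 ± 23.8 CPM in NT (log2 difference -1.03 ± 0.15, adjusted p = 6.4e-06), and was also called lower in PHF7 and ZMAT3. TLE5, the short family member that lacks the repeats of the others, fell to 26.7 ± 8.09 CPM in ZNF706 and 31.9 ± 6.65 CPM in MAZ, against 59.9 ± 18.6 CPM in NT, and was called lower in ZMAT5 too. TLE1 was called higher in PHF7, ZMAT5 and ZNF706, at 92.2 to 103 CPM, against 67.5 ± 14.05 CPM in NT. In ZMAT5, 3 of 5 were called (1 higher, 2 lower) beside 9.51% of all genes, and in PHF7 3 of 5 (2 higher, 1 lower) beside 8.41%. The ZMAT5 list had a median log2 difference of 0.12 beside 0.06 for all genes, and the PHF7 list 0.53 beside 0.07. Both medians include TLE2, near 0 CPM, with log2 differences of 2.99 ± 2.11 in ZMAT5 and 2.64 ± 1.62 in PHF7. The expressed members went both ways. In ZMAT5 TLE1 and TLE4 stood at 0.45 and 0.12, and TLE3 and TLE5 at -1.03 and -0.56. In PHF7 TLE1 and TLE4 stood at 0.53 and 0.83, and TLE3 and TLE5 at -0.53 and -0.49.

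The NCoR and HDAC list had 7 members, all tested. NCOR1, a scaffold of the complex, rose to 262 ± 32.8 CPM in CNOT4 and 252 ± 33.5 CPM in the ZFP36L1-labelled libraries, against 141 ± 18.6 CPM in NT, and was called lower in MAZ (log2 difference -0.31 ± 0.10, edgeR). HDAC3, the deacetylase of the NCoR complex, fell to 87.7 ± 17.8 CPM in CNOT4 and 78.0 ± 8.15 CPM in the ZFP36L1-labelled libraries, against 138 ± 16.8 CPM in NT, and was called lower in ZMAT5. GPS2 and TBL1X, further subunits, were called higher in the ZFP36L1-labelled libraries (log2 differences 1.00 ± 0.14 and 0.75 ± 0.14), GPS2 in CNOT4 too (1.04 ± 0.18), and HDAC2 in the ZFP36L1-labelled libraries (0.38 ± 0.10). The list thus had 5 of 7 called in ZFP36L1 (4 higher, 1 lower) beside 40.0% of all genes, with a median log2 difference of 0.38 beside 0.15. In CNOT4 it had 3 of 7 called (2 higher, 1 lower) beside 27.0% of all genes, and in ZMAT5 and MAZ 1 of 7 each, lower, beside 9.51% and 8.74%. TBL1XR1 and HDAC1 were not called in any arm. Label loss was called in 0 of 7 in each arm.

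Of 2 reported partners of ZNF703, DCAF7 rose to 304 ± 53.1 CPM in CNOT4 and 264 ± 59.3 CPM in the ZFP36L1-labelled libraries, against 150 ± 47.0 CPM in NT. PHB2 was called higher in the ZFP36L1-labelled libraries (log2 difference 0.35 ± 0.10). The list thus had 2 of 2 called in ZFP36L1 beside 40.0% of all genes, and 1 of 2 in CNOT4 beside 27.0%. Of 2 genes reported as repressed by the pair, GATA3 and TGFBR2, 0 were called in any arm by edgeR. They averaged 13.8 ± 7.67 and 7.46 ± 10.4 CPM in NT. The SE of the log2 difference was 0.43 to 0.64 for GATA3 and 0.88 to 1.55 for TGFBR2 over the arms. Sizeable shifts could thus go uncalled as well. The called share of all genes ran between 0.0785% for BRCA1 and 40.0% for ZFP36L1. All of these lists were chosen with earlier results of the data known.

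The nearest counted gene to ZNF703 on the side of higher coordinates is ERLIN2, which encodes an endoplasmic reticulum membrane protein, 44.9 kb away. ERLIN2 fell to 19.5 ± 9.03 CPM in CNOT4 and 36.3 ± 5.39 CPM in the ZFP36L1-labelled libraries, against 64.3 ± 25.9 CPM in NT (log2 differences -1.70 ± 0.37 and -0.81 ± 0.19, adjusted p = 0.00059 and 0.00070, edgeR), the arms in which ZNF703 was above NT, and was not called in the ZMAT5 arm (log2 difference -0.05 ± 0.18). On the other side, KCNU1 lies 762.5 kb away and had 0 reads in NT. COMTD1, 164 kb from ZNF503, was called higher in the ZFP36L1-labelled libraries, at 32.0 ± 8.56 CPM against 17.4 ± 11.0 CPM in NT, and LRMDA on the other side had 14 to 97 reads over the 12 libraries of a knockdown arm and 2 over the 12 NT libraries.

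Over the 36 means of arm and chase time, the mRNAs most like ZNF503 in log2 CPM were PRKCZ (Pearson r = 0.81), PPFIA1 (0.80), PCDH17 (0.79), COL27A1 (0.78) and, in rank 5 of 14961 genes, ZNF703 (0.78). For ZNF703 they were CYB5R3 (0.90), NDUFB7 (0.87), GPX4 (0.86), MRPL41 (0.85) and NDUFS7 (0.84), with ZNF503 in rank 41. Each mean rests on 3 libraries in which all genes were read together, so the points share depth and read coverage. Without the CNOT4 and ZFP36L1-labelled groups, over 28 means, r between ZNF503 and ZNF703 was 0.62 and their ranks 63 and 76. The nearest to ZNF503 were then RHOB (0.86) and DESI2 (0.81), and to ZNF703 FBRS (0.82) and NT5DC2 (0.81), with CYB5R3 still in rank 4 (0.78).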

How the data were processed

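RNA of the HEK293T cultures was made into QuantSeq 3′ libraries after alkylation. The authors counted reads and T>C conversions over 3′ UTR intervals with SlamDunk 0.4.3 on hg38, keeping multimapped reads, and deposited raw read counts, CPM and the conversion rate as a fraction for each of 69079 intervals in each library. Here the counts, covered T positions and conversions were summed over intervals per Ensembl identifier, and 19501 of 19761 identifiers were named through GENCODE 44. The deposited CPM served for the 5 CPM filter, and the deposited fraction only for a check of the conversion rates.

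Levels were fitted with edgeR 4.0.16 (TMM, filterByExpr, quasi-likelihood test, chase time as a covariate), knockdown against NT. Label loss was fitted with edgeR on conversions with covered T positions as offset, over genes for which, in knockdown and NT alike and at every time, 2 or more replicates exceeded 5 CPM. Half-lives needed an R2 of at least 0.6. DESeq2 1.42.0 and limma 3.58.1 served as alternatives, with other filters, scalings, left-out libraries and a replicate block. The fitting scripts were tested on simulated data. Total 3′ UTR reads of 63659 to 30750027 per library limit the precision. Limits for 0 conversions cover counting error only, whereas intervals of label loss include the spread between libraries.

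Named genes are the pair, listed genes that passed the call rule (at most 6 a list), the 5 most alike genes and the nearest counted genes on either side. The members and lists were chosen with earlier results of these data known. PAX2, TLE2, TBL1XR1, HDAC1, GATA3 and TGFBR2 did not pass and were named after their values were seen. A further gene was left out of the lists and is not reported here.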

Additional observations from a re-analysis of the deposited data

How the results depend on the processing

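Each alternative changed 1 choice at a time, and counts are given under the alternative and then as reported. With 0 h libraries only, genes called for level against NT numbered 107 against 1250 for ZMAT5, 52 against 1363 for ZMAT3, 54 against 673 for ZNF706, 71 against 1171 for MAZ, 209 against 1121 for PHF7, 0 against 10 for BRCA1, 1463 against 3588 for CNOT4 and 1671 against 5296 for ZFP36L1. With DESeq2, genes called for level against NT numbered 1064 against 673 for ZNF706, 1958 against 1121 for PHF7 and 53 against 10 for BRCA1. With the shallow library left out, genes called for level against NT numbered 1922 against 1121 for PHF7. With no filter on low counts, genes called for level against NT numbered 47 against 10 for BRCA1. With no filter on low counts, genes called for level by chase time numbered 4 against 0 for ZMAT5, 26 against 0 for ZMAT3, 12 against 0 for ZNF706, 20 against 0 for MAZ, 4 against 0 for PHF7, 40 against 2 for BRCA1 and 48 against 0 for ZFP36L1. With the shallow library left out, genes called for level by chase time numbered 1 against 0 for PHF7 and 137 against 76 for CNOT4. With limma, genes called for label loss numbered 0 against 5 for ZMAT5, 6 against 43 for ZMAT3, 0 against 1 for ZNF706, 1 against 3 for MAZ, 4 against 23 for PHF7, 0 against 4 for CNOT4 and 1 against 6 for ZFP36L1. With 0, 2 and 4 h only, genes called for label loss numbered 0 against 5 for ZMAT5, 0 against 43 for ZMAT3, 0 against 1 for ZNF706, 1 against 3 for MAZ, 1 against 23 for PHF7, 0 against 4 for CNOT4 and 0 against 6 for ZFP36L1. With a filter of 1 CPM, genes called for label loss numbered 104 against 43 for ZMAT3, 60 against 23 for PHF7 and 27 against 6 for ZFP36L1. With the replicate block, genes called for label loss numbered 26 against 43 for ZMAT3 and 14 against 23 for PHF7. With conversions replaced by T>C reads, genes called for label loss numbered 15 against 23 for PHF7. With the shallow library left out, genes called for label loss numbered 15 against 4 for CNOT4. For 8 h against 0 h in NT they numbered 96 with DESeq2 and 9 with no filter on low counts, against 0. Calls for level numbered 676 to 688 for ZMAT5, 641 to 792 for ZMAT3, 272 to 530 for ZNF706, 509 to 632 for MAZ, 250 to 1204 for PHF7, 4 to 7 for BRCA1 and 1834 to 3677 for CNOT4 without 1 replicate at a time. Calls for level by chase time numbered 0 to 2 for ZMAT5, 0 to 1 for ZMAT3, 0 to 1 for ZNF706, 0 to 1 for MAZ, 0 to 11 for BRCA1, 32 to 76 for CNOT4 and 0 to 1 for ZFP36L1 without 1 replicate at a time. Calls for label loss numbered 0 to 5 for ZMAT5, 7 to 9 for ZMAT3, 0 to 2 for ZNF706, 0 to 1 for MAZ, 0 to 10 for PHF7, 0 to 6 for CNOT4 and 0 to 2 for ZFP36L1 without 1 replicate at a time.

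For the pair itself, the log2 difference of ZNF503 in the ZFP36L1-labelled libraries was 1.103 in the 0 h libraries alone. With conversions replaced by T>C reads, the difference in label loss of ZNF503 changed sign, to -0.0102 for ZMAT5, -0.00988 for ZMAT3 and -0.0113 for CNOT4 per h. With limma, the difference in label loss of ZNF503 changed sign, to -0.0249 for ZMAT5 and -0.00808 for CNOT4 per h. With the replicate block, the difference in label loss of ZNF503 changed sign, to -0.00387 for ZMAT5 per h. With 0, 2 and 4 h only, the difference in label loss of ZNF503 changed sign, to -0.0694 for ZMAT5, -0.131 for ZMAT3, -0.0325 for ZNF706, -0.0943 for MAZ, -0.0998 for PHF7, -0.110 for BRCA1, -0.113 for CNOT4 and -0.0486 for ZFP36L1 per h. With conversions replaced by T>C reads, the difference in label loss of ZNF703 changed sign, to -0.0201 for ZNF706 per h. With the replicate block, the difference in label loss of ZNF703 changed sign, to -0.00788 for ZNF706 per h. With 0, 2 and 4 h only, the difference in label loss of ZNF703 changed sign, to -0.0396 for ZNF706 and -0.0477 for ZFP36L1 per h. With limma, the difference in label loss of ZNF703 changed sign, to 0.00720 for MAZ and 0.00873 for PHF7 per h. Without 1 replicate at a time it ran between -0.0977 and 0.0730 for ZNF503 in ZMAT5, -0.0247 and 0.0824 for ZNF503 in ZMAT3, -0.0260 and 0.0849 for ZNF503 in ZNF706, -0.0511 and 0.0498 for ZNF703 in ZNF706, -0.0987 and 0.0161 for ZNF703 in MAZ, -0.0168 and 0.0924 for ZNF503 in PHF7, -0.0528 and 0.0766 for ZNF503 in CNOT4 and -0.0519 and 0.0785 for ZNF703 in ZFP36L1. For level by chase time, the 8 h interaction term (log2) of ZNF703 in PHF7 was 0.11 without the shallow library. Without 1 replicate it ran between -0.137 and 0.211 for ZNF503 in ZMAT5, -0.139 and 0.241 for ZNF503 in ZMAT3, -0.0665 and 0.169 for ZNF503 in ZNF706, -0.301 and 0.0295 for ZNF703 in PHF7, -0.286 and 0.258 for ZNF503 in BRCA1 and -0.1497 and 0.0795 for ZNF703 in ZFP36L1. With the rate divided by the pooled rate, the 0 h rate of ZNF503 over NT was 0.968 in ZMAT3, 0.971 in MAZ and 0.902 in PHF7, on the other side of 1 from the plain rate. With the rate divided by the pooled rate, the 0 h rate of ZNF703 over NT was 0.962 in ZMAT3, 0.981 in ZNF706, 0.936 in MAZ, 0.850 in PHF7 and 1.03 in BRCA1, on the other side of 1 from the plain rate. Without 1 replicate the ratio ran between 0.859 and 1.09 for ZNF703 in BRCA1, 0.894 and 1.03 for ZNF503 in BRCA1 and 0.949 and 1.03 for ZNF503 in ZFP36L1. By the share of T>C reads, ZNF503 minus ZNF703 was 3.50 in ZMAT5, 2.66 in ZMAT3, 2.92 in ZNF706, 2.63 in MAZ, 2.09 in PHF7, 0.669 in BRCA1, 0.0956 in CNOT4, 2.16 in ZFP36L1 and 3.47 in NT percentage points. Without 1 replicate, by the T>C rate, it ran between -0.334 and -0.286 in ZMAT3, -0.188 and -0.109 in CNOT4 and -0.109 and 0.0135 in NT, and ZMAT3 and CNOT4 passed without replicate 3. The half-life of ZNF503 with the share of T>C reads was 1.78 h in ZMAT5, 2.45 h in ZMAT3, 1.85 h in ZNF706, 2.07 h in MAZ, 2.04 h in PHF7, 1.76 h in BRCA1, 1.58 h in CNOT4, 1.70 h in ZFP36L1 and 1.66 h in NT. The half-life of ZNF503 with a straight line through the log rates was 1.91 h in ZMAT5, 1.70 h in ZNF706, 1.54 h in MAZ, 1.67 h in BRCA1, 1.81 h in CNOT4, 1.48 h in ZFP36L1 and 1.94 h in NT. The half-life of ZNF703 with the share of T>C reads was 1.78 h in ZMAT5, 2.87 h in ZMAT3, 2.22 h in ZNF706, 2.27 h in MAZ, 2.64 h in PHF7, 2.15 h in BRCA1 and 1.91 h in ZFP36L1. The half-life of ZNF703 with a straight line through the log rates was 1.98 h in ZMAT5 and 1.86 h in PHF7. The cause of these shifts was not tested. The replicate numbers did not pair the samples, since same-numbered libraries had correlations of their deviations between -0.0329 and 0.0232 and only 34 of 96 correlated best with their own number, and with the replicate block no call of ZNF503 or ZNF703 for label loss or level by chase time changed. Depth limits the 8 h rates most, where few conversions remain, and the shallow PHF7 library held 0 conversions of either gene.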
